A study of Mus musculus with 8 samples.

Results

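Genes of cholesterol synthesis and of its SREBP2 control were examined in the colon of STAT5b-deficient and wild type mice. The list names 8 genes of the pathway: the enzymes Hmgcs1, Idi1, Fdps, Fdft1, Sqle and Lss and the regulators Srebf2 and Insig1. Of these, 6 were found by the RefSeq accession of a probe set, each with 1 probe set, among 14351 named genes. Idi1 and Fdps were matched by no probe set and are not analysed here. Although the group was drawn up as synthesis and uptake genes, no member is itself an uptake receptor, so genes of uptake are given with the rest of the pathway.

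The study measured colon RNA of adult mice on Affymetrix expression arrays, in which short DNA probes grouped into probe sets read the transcript of a gene. The groups were STAT5b-/- (3 arrays, 1 from a male and the others from females), wild type mice titled REF (1 sample, female) and wild type mice titled WT (3 arrays, all female). STAT5b is a signal-dependent transcription factor that acts downstream of growth hormone and of several cytokines. The sources used here give neither the mutation, the strain, an exact age nor the meaning of REF, nor whether each replicate is an animal of its own, so the p-values may reflect technical spread alone. The 2 REF columns were the same to within a relative difference of 2.47e-07, under sampling noise, and entered as 1 sample. Values are expressed relative to the average of the 3 WT arrays, so 1 is the WT mean and no gene's level can be set against another's. Stat5b itself was not lower in the arrays labelled STAT5b-/-, with ratios of 1.16, 1.17 and 1.26 there, 1.18 in REF and 1.08, 0.930 and 0.993 in the WT arrays (log2 fold change 0.26 ± 0.12, limma adjusted p = 0.175). Whether its probe set lies in the part of the gene that the mutation alters is not known here, so every direction below rests on the labels.

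Cholesterol is built from acetyl-CoA through mevalonate, isoprenoids and squalene to lanosterol, the first sterol, and then through a series of demethylation, reduction and isomerisation steps. SREBP2, the product of Srebf2, is a membrane-bound transcription factor that is released when sterols run low and switches on these enzymes and genes of cholesterol uptake, while INSIG proteins hold it back when sterols are plentiful. The gut epithelium both makes and absorbs cholesterol and renews its membranes continually.

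SREBP2 acts at sterol regulatory elements, commonly next to sites of the factor NF-Y, and the promoters of the members are shown for these elements. RefSeq windows (assembly GRCm38.p6), reaching from 250 bases before to 50 bases after the start site, were at hand for Hmgcs1, Srebf2, Insig1, Lss and Idi1, while Sqle, Fdft1 and Fdps are named only. The Hmgcs1 window lies at chr13:119690101-119690400, that of Srebf2 at chr15:82147019-82147318, that of Insig1 at chr5:28071162-28071461 and that of Lss at chr10:76531355-76531654, all on the plus strand. Capitals mark the letters TCACNCCA, a core of the sterol regulatory element, and CCAAT, the NF-Y box, each searched on both strands, so that CCAAT on the minus strand reads ATTGG.
Hmgcs1 promoter: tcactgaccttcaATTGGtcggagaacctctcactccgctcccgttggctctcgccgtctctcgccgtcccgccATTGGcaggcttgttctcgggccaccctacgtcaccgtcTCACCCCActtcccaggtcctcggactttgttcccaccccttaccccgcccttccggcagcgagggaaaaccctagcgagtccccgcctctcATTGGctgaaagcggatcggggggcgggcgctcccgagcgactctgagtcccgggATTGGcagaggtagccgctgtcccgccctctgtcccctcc
Srebf2 promoter: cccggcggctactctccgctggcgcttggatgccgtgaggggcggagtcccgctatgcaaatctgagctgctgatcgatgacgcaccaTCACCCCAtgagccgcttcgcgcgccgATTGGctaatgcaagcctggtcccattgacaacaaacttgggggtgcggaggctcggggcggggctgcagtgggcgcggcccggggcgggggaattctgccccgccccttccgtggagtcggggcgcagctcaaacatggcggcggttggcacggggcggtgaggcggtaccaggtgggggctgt
Insig1 promoter: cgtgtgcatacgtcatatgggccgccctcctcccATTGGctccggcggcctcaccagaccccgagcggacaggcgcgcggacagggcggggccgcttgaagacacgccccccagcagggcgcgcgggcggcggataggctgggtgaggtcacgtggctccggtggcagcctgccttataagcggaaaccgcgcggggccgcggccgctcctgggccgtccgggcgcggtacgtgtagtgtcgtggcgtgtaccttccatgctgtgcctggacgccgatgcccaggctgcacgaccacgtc
Lss promoter: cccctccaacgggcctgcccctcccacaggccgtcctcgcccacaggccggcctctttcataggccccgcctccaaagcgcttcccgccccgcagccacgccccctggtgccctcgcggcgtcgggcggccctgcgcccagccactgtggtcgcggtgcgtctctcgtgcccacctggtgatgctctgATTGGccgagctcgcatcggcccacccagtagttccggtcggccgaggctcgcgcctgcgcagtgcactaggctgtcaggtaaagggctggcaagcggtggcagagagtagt

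The letters TCACNCCA, read as TCACCCCA in both cases, began at position -137 from the start site in Hmgcs1 and at -162 in Srebf2, and were not in the other 3 windows searched, whereas 4.36% of 32851 promoter windows of the same length held TCACNCCA. All 5 member windows held at least 1 CCAAT box, against 37.4% of all windows, and that of Hmgcs1 held 4. The letters TTCNNNGAA, the site form that STAT factors bind, were in 0 of the 5 member windows and in 8.3% of all windows. With only 5 windows, a count of 0 does not set the members apart from that share. The 2 motifs marked do not overlap in these windows. A match describes these letters and not a bound site.

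None of the 6 measured members passed the test between STAT5b-deficient and WT colon. In that test (limma on log2 ratios, two-sided, Benjamini-Hochberg adjustment over all named genes, threshold 0.05 on the adjusted p), 0 of 6 members were called, while 21.7% of the 14351 genes were. That share was 2.73% after quantile normalization, and 13.3%, 12% and 12.9% without STAT5b-deficient replicate 1, 2 and 3, again with 0 members called. At an unadjusted p under 0.05 there was 1 member, Sqle, against 35% of all genes. The median log2 fold change of the members was -0.19, beside 0.0068 over all genes. The 95% intervals, not adjusted for the number of genes, stayed inside a 2-fold change in either direction for all 6 members. In bulk tissue, fewer cells of a type and less RNA per cell cannot be told apart.

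**Figure D1:**
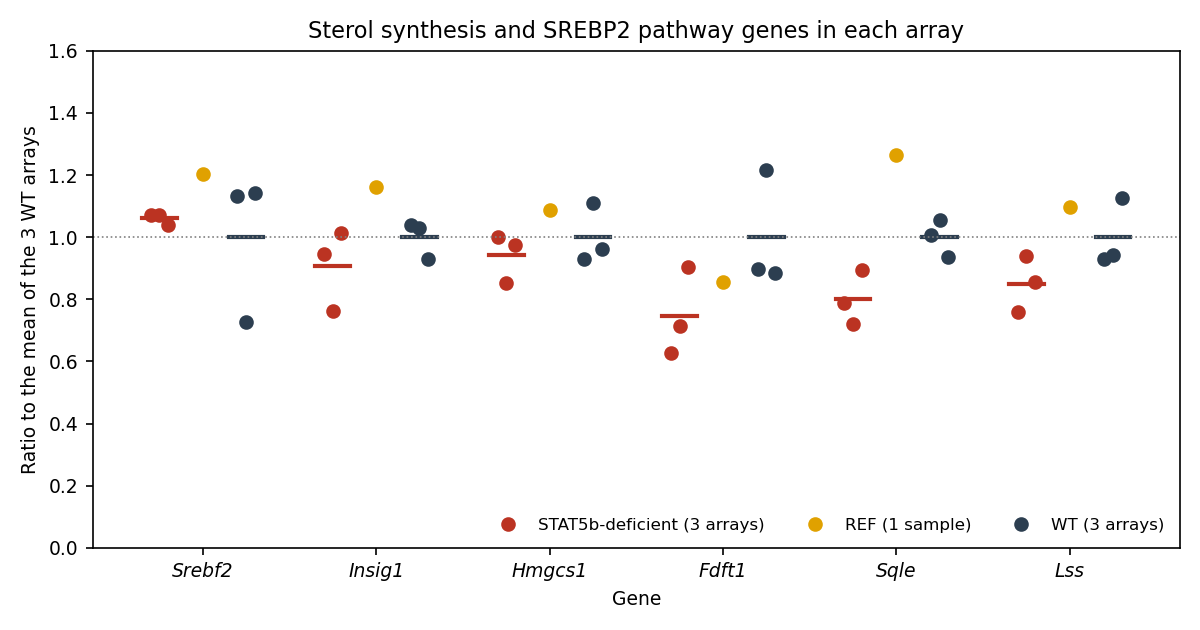
Ratio to the WT mean (y axis, linear) of the 6 measured genes in STAT5b-deficient arrays (red), REF (yellow) and WT arrays (dark); points are arrays, and short bars are means of 3. Points of the red and dark groups overlap for every gene but Sqle, whose STAT5b-deficient ratios end at 0.895, under the lowest WT ratio of 0.938.

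Srebf2, which encodes SREBP2, had ratios of 1.07, 1.07 and 1.04 in the STAT5b-deficient arrays, 1.20 in REF and 1.13, 0.727 and 1.14 in the WT arrays. The STAT5b-deficient arrays lay close together, inside the WT range, and WT replicate 2 was the lowest of the 7 samples. The log2 fold change of Srebf2 was 0.12 ± 0.20 (SE; limma adjusted p = 0.73), and without WT replicate 2 it was -0.099 (limma adjusted p = 0.568), so its direction rests on that array.

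Insig1 encodes the sterol-sensing anchor that keeps SREBP2 in the endoplasmic reticulum and is itself switched on by SREBP2. Its ratios were 0.945, 0.762 and 1.01 in the STAT5b-deficient arrays, 1.16 in REF and 1.04, 1.03 and 0.929 in the WT arrays. The groups overlapped, STAT5b-deficient replicate 2 being the lowest sample. Its log2 fold change was -0.15 ± 0.15 (limma adjusted p = 0.536), with a 95% interval from -0.50 to 0.20.

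Hmgcs1, the cytosolic HMG-CoA synthase of the early pathway, had the smallest difference of the 6. Its ratios were 0.999, 0.853 and 0.973 in the STAT5b-deficient arrays, 1.09 in REF and 0.929, 1.11 and 0.961 in the WT arrays, with the groups interleaved. The log2 fold change was -0.086 ± 0.13 (limma adjusted p = 0.707), and its 95% interval from -0.41 to 0.23 corresponds to ratios of 0.755 to 1.18.

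Fdft1 encodes squalene synthase, the first enzyme committed to sterols, and had the largest difference among the members. Its ratios were 0.628, 0.713 and 0.903 in the STAT5b-deficient arrays, 0.856 in REF and 0.897, 1.22 and 0.886 in the WT arrays. STAT5b-deficient replicate 3 reached the lower WT arrays, REF lay below all WT arrays, and WT replicate 2 stood above the others. The log2 fold change was -0.42 ± 0.20 with a 95% interval from -0.89 to 0.046 (limma adjusted p = 0.182). Mean ratios were 0.748 ± 0.141 in STAT5b-deficient and 1 ± 0.188 in WT arrays (SD, n = 3 each).

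Sqle, squalene epoxidase, which adds oxygen to squalene and is a second control point of the pathway, was the 1 member whose groups did not overlap. Its ratios were 0.788, 0.720 and 0.895 in the STAT5b-deficient arrays, 1.26 in REF and 1.01, 1.05 and 0.938 in the WT arrays. Every STAT5b-deficient array lay below every WT array, a pattern that 16.5% of all genes showed in the lower direction, 25% in the higher and 41.5% in either. The log2 fold change was -0.32 ± 0.13, or 1.25-fold lower, with a 95% interval from -0.64 to -0.0069, and it did not pass after adjustment (limma unadjusted p = 0.0464, adjusted p = 0.136). Over the alternatives tried, the adjusted p of Sqle ranged from 0.0719 to 0.535, and its log2 fold change from -0.41 to -0.23.

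Lss, lanosterol synthase, closes the ring of oxidised squalene to the first sterol. Its ratios were 0.759, 0.938 and 0.855 in the STAT5b-deficient arrays, 1.10 in REF and 0.930, 0.944 and 1.13 in the WT arrays. STAT5b-deficient replicate 2 lay among the lower WT arrays and the other two below them. The log2 fold change was -0.23 ± 0.14 (limma adjusted p = 0.31).

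Arrays differed in which members they held lowest. STAT5b-deficient replicate 2 was the lowest of the 7 samples for 3 of them, Insig1, Hmgcs1 and Sqle, while replicate 1, from the male, was the lowest for Fdft1 and Lss. The median log2 ratio over the members was -0.21, -0.31 and -0.093 in the STAT5b-deficient arrays, 0.17 in REF and -0.047, 0.060 and -0.076 in the WT arrays. Of the 6 genes, 5 had a negative log2 fold change, as had 49.4% of all genes. Leaving out the array from the male gave -0.30 for Fdft1 and -0.15 for Lss, again without a call.

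In REF, also wild type, 5 of the 6 members had a positive log2 difference from the WT arrays. The log2 difference of REF from WT was 0.34 for Sqle, 0.30 for Srebf2, 0.22 for Insig1, 0.14 for Lss, 0.12 for Hmgcs1 and -0.21 for Fdft1. With 1 sample against 3, limma called 0 of 14351 genes (0%), the lowest adjusted p being 0.998, so the test tells little of any member; 207 genes (1.44%) and 0 members had an unadjusted p under 0.05. Sqle, Srebf2 and Insig1 were higher in REF than in all 6 other arrays, which held for 6.38% of all genes. Above the WT range alone lay these 3 members and 20.1% of all genes, and below it lay 1 member, Fdft1, and 28.2% of all genes. In REF, all 6 measured markers of proliferating crypt cells (Top2a, Mcm2, Mcm5, Ccnb1, Birc5, Cdk1) also lay above every WT array. Their median log2 difference from WT was 0.53 in REF and 0.10 in STAT5b-deficient colon. Of the 6, Mcm2 was called higher in STAT5b-deficient colon (log2 fold change 0.61 ± 0.12, limma adjusted p = 0.0128) and the other 5 were not called. Its ratios there were 1.57, 1.55 and 1.45, above the 1.22 of REF. Among other marker lists, REF lay below every WT array for 4 of 6 fibroblast, 4 of 6 smooth muscle and 3 of 5 goblet cell markers. It lay above every WT array for 0 of these. The part of these cells and of proliferating crypt cells in the REF levels was not tested. Both differences, of REF and of STAT5b-deficient colon, share the WT arrays.

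**Figure D2:**
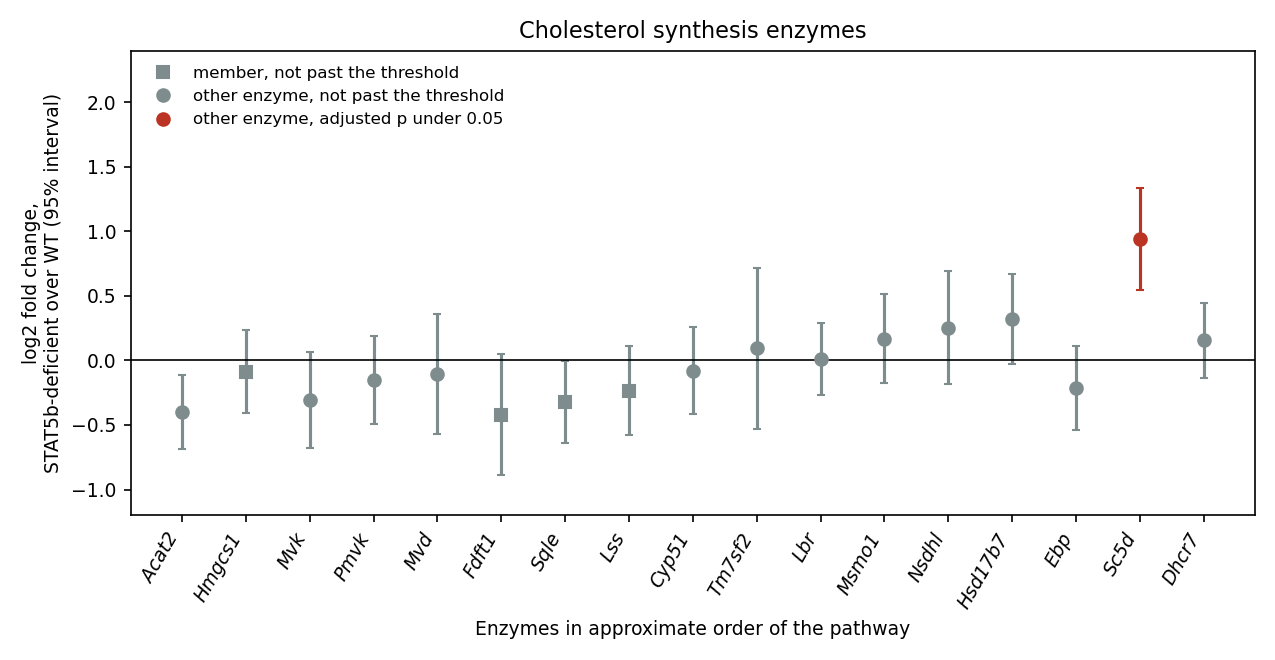
log2 fold change of STAT5b-deficient over WT (y axis) with unadjusted 95% intervals for 17 enzymes in approximate pathway order; squares are members, circles other enzymes, and red marks an adjusted p under 0.05. Sc5d stands above the rest at 0.94, and the lowest is Fdft1 at -0.42.

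The rest of the synthesis pathway was then read in the same fit. Of the 13 other enzymes examined, all measured, 1 rose and 0 fell (background 13.3% of genes higher and 8.42% lower). Sc5d, the desaturase of the sterol ring, rose 1.92-fold. It had ratios of 1.81, 1.91 and 1.98 in the STAT5b-deficient arrays, 1.36 in REF and 0.917, 1.23 and 0.855 in the WT arrays (log2 fold change 0.94 ± 0.17, limma adjusted p = 0.00899). Both groups stood apart, with REF between them. Acat2, which joins acetyl-CoA units at the start of the pathway, had -0.40 ± 0.12 and did not pass (limma adjusted p = 0.0561). Its groups did not overlap, a pattern of 16.5% of all genes in the lower direction. Hsd17b7 had 0.32 ± 0.15 (limma adjusted p = 0.172). Mvk, mevalonate kinase, had -0.31 ± 0.16 (limma adjusted p = 0.226).

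Over the 66 measured genes of 7 lists of the wider pathway, 7 rose and 5 fell, which is 18.2% against the 21.7% background, with a median log2 fold change of -0.018. A further 5 listed genes were not matched. Called or not, 15 of the 66 had groups that did not overlap in the higher direction and 15 in the lower. Of all genes, 25% and 16.5% did so.

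**Figure D3:**
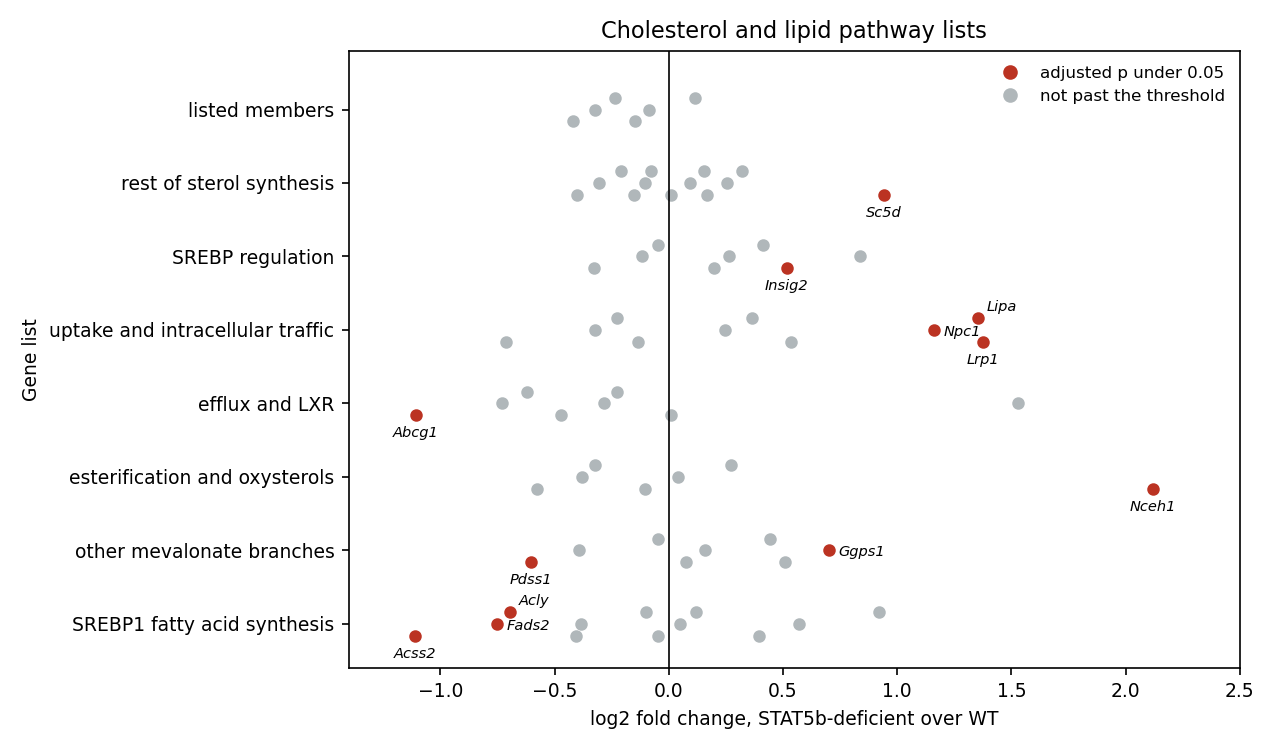
log2 fold change of STAT5b-deficient over WT (x axis) for the 6 members and the 66 measured genes of 7 pathway lists; red points with names have an adjusted p under 0.05. The members lie between -0.42 and 0.12, while called genes reach 2.12 for Nceh1 and -1.11 for Acss2.

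Among regulators of SREBP, 1 of 8 rose and 0 fell (background 13.3% of genes higher and 8.42% lower). Insig2 is the other INSIG gene and does not depend on SREBP2. Its ratios were 1.56, 1.32 and 1.42 in the STAT5b-deficient arrays, 0.851 in REF and 1.01, 0.984 and 1.00 in the WT arrays (log2 fold change 0.52 ± 0.12, limma adjusted p = 0.0248). Of its 2 probe sets, tested singly, one passed (0.61, limma adjusted p = 0.0146) and the other did not (0.42, limma adjusted p = 0.0534). Ube2g2, a ubiquitin-conjugating enzyme, had 0.41 ± 0.13 and Srebf1 had 0.84 ± 0.29, both short of the threshold (limma adjusted p = 0.061 and 0.0883). Rnf139, a sterol-responsive ubiquitin ligase, had -0.33 ± 0.13 (limma adjusted p = 0.114).

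Of 10 genes of uptake and intracellular traffic examined, 3 rose and 0 fell (background 13.3% of genes higher and 8.42% lower). Lipa, the lysosomal acid lipase that frees cholesterol from lipoprotein esters, rose 2.56-fold, with ratios of 2.39, 2.86 and 2.43 in the STAT5b-deficient arrays, 1.16 in REF and 1.00, 0.925 and 1.07 in the WT arrays (log2 fold change 1.35 ± 0.13, limma adjusted p = 0.00107). Npc1, which exports cholesterol from lysosomes, rose by 1.16 ± 0.21 on the log2 scale (limma adjusted p = 0.00952), and Lrp1, an endocytic lipoprotein receptor, by 1.37 ± 0.27 (limma adjusted p = 0.0133). WT replicate 2 had the highest WT ratio of Npc1, 1.31, and the lowest of Lrp1, 0.620. Npc2, the soluble lysosomal partner of Npc1, had a log2 fold change of -0.71 ± 0.26 and did not pass (limma adjusted p = 0.101). Its groups did not overlap, as in 16.5% of all genes in the lower direction.

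In efflux and LXR genes, 0 of 8 rose and 1 fell (background 13.3% of genes higher and 8.42% lower). Abcg1, an exporter of cholesterol to lipoproteins, had ratios of 0.459, 0.421 and 0.477 in the STAT5b-deficient arrays, 0.747 in REF and 0.760, 1.32 and 0.920 in the WT arrays (log2 fold change -1.11 ± 0.21, limma adjusted p = 0.012). Abca1, another exporter, and Apoe, a lipid carrier, had log2 fold changes of -0.47 ± 0.21 and -0.62 ± 0.23, short of the threshold (limma adjusted p = 0.171 and 0.100). Apoa1, the main protein of HDL, had 1.53 ± 0.52 (limma adjusted p = 0.0821). Its groups overlapped, with ratios of 5.52, 1.27 and 3.13 in the STAT5b-deficient arrays and 0.722, 1.33 and 0.952 in the WT arrays.

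Of 7 esterification and oxysterol genes, 1 rose and 0 fell (background 13.3% of genes higher and 8.42% lower). Nceh1, a hydrolase of neutral cholesterol esters, rose 4.35-fold, with ratios of 4.64, 4.39 and 4.02 in the STAT5b-deficient arrays, 0.911 in REF and 1.04, 0.927 and 1.03 in the WT arrays (log2 fold change 2.12 ± 0.12, limma adjusted p = 0.000189). REF lay just below the WT arrays. Soat1, which esterifies cholesterol, had -0.38 ± 0.13 (limma adjusted p = 0.0836), Cyp46a1 had -0.32 ± 0.15 (0.192) and Cyp27a1, a sterol hydroxylase, had 0.27 ± 0.15 (limma adjusted p = 0.27).

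The other branches of the mevalonate pathway had 1 of 8 genes risen and 1 fallen (background 13.3% higher and 8.42% lower). Ggps1, which makes geranylgeranyl diphosphate for protein prenylation, rose by 0.70 ± 0.16 on the log2 scale (limma adjusted p = 0.0248). Pdss1, which starts the side chain of ubiquinone, fell by 0.61 ± 0.13 on the log2 scale (limma adjusted p = 0.0168). Pggt1b, a prenyltransferase subunit, and Coq2 of ubiquinone synthesis had -0.39 ± 0.12 and 0.51 ± 0.16 (limma adjusted p = 0.066 and 0.0702).

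Fatty acid synthesis genes, which answer mainly to SREBP1, had 0 of 12 risen and 3 fallen (background 13.3% higher and 8.42% lower). Acss2, which makes acetyl-CoA from acetate, had ratios of 0.447, 0.487 and 0.446 in the STAT5b-deficient arrays, 0.504 in REF and 1.15, 0.847 and 1.00 in the WT arrays (log2 fold change -1.11 ± 0.15, limma adjusted p = 0.00333). The wild type REF sample was therefore nearly as low. Acly, which makes cytosolic acetyl-CoA from citrate, fell by 0.69 ± 0.11 (limma adjusted p = 0.00681) with 0.908 in REF, and the desaturase Fads2 by 0.75 ± 0.20 (limma adjusted p = 0.0389) with 1.20 in REF. Elovl5, an elongase, had -0.38 ± 0.11 (limma adjusted p = 0.0517).

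Of the 12 called pathway genes, 6 (Sc5d, Npc1, Lipa, Nceh1, Acly and Acss2) passed with any 1 of the 6 arrays left out. Without STAT5b-deficient replicate 2, Lrp1 and Abcg1 had an adjusted p of 0.0595 and 0.0553. Of these 6 fits, Insig2 kept the call only in that without WT replicate 2, and otherwise had an adjusted p up to 0.0885. Ggps1 lost it without STAT5b-deficient replicate 1 or 3 or WT replicate 1 or 3 (adjusted p up to 0.0946), Pdss1 without STAT5b-deficient replicate 2 or 3 or WT replicate 1 or 3 (up to 0.0738), and Fads2 without STAT5b-deficient replicate 1 or 2 or WT replicate 1 or 3 (up to 0.116). After quantile normalization, which gives all arrays 1 distribution, Nceh1 was the 1 gene of the 12 still called.

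By the smallest root mean square difference of log2 ratio over the 7 samples, the genes most like Fdft1, the member with the largest change, were Traip (0.063), H2ap (0.065), Wfdc5 (0.075), Dhrsx (0.080) and Calhm2 (0.082). Like Fdft1 they were high in WT replicate 2, with ratios of 1.21 to 1.31 there, and were not called.

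Over the whole series, 1910 genes (13.3%) were higher and 1209 (8.42%) lower in STAT5b-deficient colon (165 and 227 genes after quantile normalization). The SD of log2 ratios was 0.646 to 0.737 in STAT5b-deficient arrays, 0.402 in REF and 0.289 to 0.363 in WT arrays, which are held together by division by their own mean. Of 7 measured epithelial markers, 3 rose and 0 fell, and of 9 absorptive colonocyte markers 7 rose and 1 fell, with Krt20, which rose, in both lists. Of the goblet cell, fibroblast and macrophage markers, 3 of 5, 5 of 6 and 5 of 5 fell, and the rest were not called. Of the B and plasma cell markers 3 of 5 fell, and of the 4 T cell markers 3 rose and 1 fell. Among the 6 proliferating crypt markers 1, Mcm2, rose and 0 fell, while 0 of the smooth muscle, adipocyte and hepatocyte markers were called. Levels cannot be read from ratios, so no marker could be shown absent. The part of these markers in the called pathway genes was not tested.

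**Figure D4:**
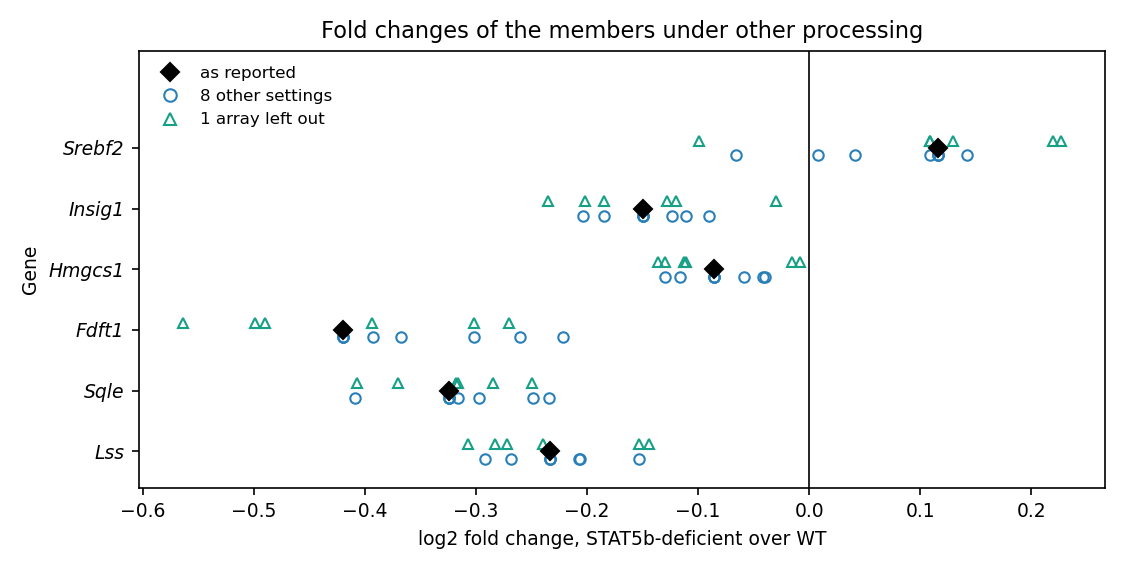
log2 fold change of STAT5b-deficient over WT (x axis) for each member: black diamonds as reported, blue circles under 8 other settings, green triangles with 1 array left out. For 5 genes every point is negative, and Srebf2 has points on both sides of 0, from -0.099 to 0.23.

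The direction of the members was recomputed under 14 alternatives. Of these, 3 (the replicate block, single probe sets and all probe sets) leave a member's fold change as it is by construction, and the sex covariate repeats the fit without the male array, so 10 bear on direction. Hmgcs1, Sqle, Insig1, Fdft1 and Lss were negative in all 10, and the number of members called was 0 in all 14. Fdft1 ranged from -0.56 to -0.22, Sqle from -0.41 to -0.23 and Hmgcs1 from -0.14 to -0.0079.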

How the data were processed

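Colon RNA of 3 STAT5b-deficient, 1 REF and 3 WT samples was analysed. Per the labels' protocols, 100 ng of total RNA was amplified once and labelled with biotin for Affymetrix arrays; RMA, without a version, is named in the submitters' processing notes. The deposited values are linear ratios: WT values average 1 in each probe set, with a largest deviation of 1.87e-07, so the authors had divided by the WT mean. Levels are lost thereby, and dim probe sets could not be filtered out. The lowest value, 0.01, was reached by no gene named here. No scanner signals were used, and the number of arrays limits the precision.

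Of 26180 probe sets, 15228 matched 1 symbol by RefSeq accession (table of GRCm38.p6) and 10952 matched none. Ratios were taken to log2 without a pseudocount, probe sets of a gene averaged, and groups compared with limma 3.58.1 (R 4.3.3) over the 6 arrays of both groups, with Benjamini-Hochberg adjustment over 14351 genes at 0.05; REF was set against WT likewise. The script was tested on simulated data. Members and lists were chosen with earlier results of these data known, and some genes of the pathway are not reported here, so list counts are not those of whole pathways. All members were named, all called genes of the other lists, and up to 4 genes a list by smallest p. Alternatives were a replicate block, quantile normalization, median centring, single probe sets, sex, REF as a wild type sample, array weights, all probe sets, and each array left out.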

Additional observations from a re-analysis of the deposited data

How the results depend on the processing

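No member was called under any of the 14 alternatives, and in the 10 that give members a fold change of their own, 58 of 60 values kept their direction. The other 2 were of Srebf2, which was -0.066 with array weights (adjusted p = 0.727) and -0.099 without WT replicate 2 (adjusted p = 0.568); with 1 array left out it ranged from -0.099 to 0.23. The count of genes called over the series, 3119 as reported, was 2039 with the replicate block, 392 after quantile normalization, and 1914 with sex as a covariate, and 1716 to 3551 with 1 array left out (1716 without STAT5b-deficient replicate 2, 1852 without replicate 3 and 1914 without replicate 1). With all 26180 probe sets in the fit, the count was 4944. It takes in probe sets without a symbol and counts a gene with several called probe sets as 1, so it is no share of probe sets. Quantile normalization forces the unequal spreads of the ratio columns to 1 distribution; 42.1% of calls were then higher, against 61.2%. Of the other pathway genes, 12 were called as reported, 1 after quantile normalization and 21 with array weights, and 9 to 15 with 1 array left out. Since 1 array is from a male, the fit with sex as a covariate is the fit without STAT5b-deficient replicate 1, where the calls of Insig2, Ggps1 and Fads2 ended. The causes were not tested where the construction does not show them.

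The labels do not say whether a replicate number marks paired samples. Deviations of same-numbered STAT5b-deficient and WT arrays correlated between -0.186 and 0.0355, and those of differently numbered arrays between -0.137 and 0.216. As these are deviations from means of 3 arrays, they cannot settle whether samples were paired. The replicate block left 0 members called and 9 other pathway genes, without Insig2, Ggps1 and Pdss1.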
